A study of Mus musculus with 18 samples.

Results

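Untreated Lipa-/- livers were compared with WT livers in the arm of the study that ran for 34 weeks. The members are 6 of the 18 livers of the series, mice 1, 2 and 3 labelled WT and mice 4, 5 and 6 labelled KO, and the 14533 of 35441 listed genes that had more than 100 reads summed over the 18 livers. The Lipa-/- line carries the Lipa tm1a(EUCOMM)Hmgu/Biat allele from which a Cre recombinase under a CMV promoter had removed exon 4, bred onto C57/BL6N, so the enzyme was missing from every tissue and not from the liver alone. Neither group received the vector, and 34 weeks, labelled as 8 months, is counted from the injection of the treated mice of the same arm, which were 10 to 12 weeks old on that day. The study describes its mice as male. It also states that all but 1 of the untreated Lipa-/- mice of this arm had been killed earlier on reaching an ethical limit, so the age at which each Lipa-/- liver was taken may be lower than the label says. Poly(A) RNA of frozen liver was sequenced, 1 library per mouse, and 12-week livers of the same genotypes are used below as the comparison nearest in kind.

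Lysosomal acid lipase, the product of Lipa, cleaves cholesteryl esters and triglycerides that reach the lysosome with lipoproteins or by lipophagy, and the cholesterol and fatty acids it frees leave for the cytosol. In the liver the enzyme works in hepatocytes and in Kupffer cells, the resident macrophages. Without it neutral lipid stays in the lysosome, and human deficiency presents as Wolman disease in infants or as cholesteryl ester storage disease later in life, with an enlarged, fatty and often fibrotic liver. The comparison asks how far the transcriptome of the untreated liver had moved from WT at the late time point.

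The sequence that the allele lacks is exon 4 of the 10 exons of Lipa, at chr19:34488223-34488421 of GRCm39 on the minus strand, within a gene that spans chr19:34469712-34522163. It is shown because its loss defines the Lipa-/- group. All of its 199 bases are coding, a length that leaves a remainder of 1 when divided by 3.
Lipa exon 4: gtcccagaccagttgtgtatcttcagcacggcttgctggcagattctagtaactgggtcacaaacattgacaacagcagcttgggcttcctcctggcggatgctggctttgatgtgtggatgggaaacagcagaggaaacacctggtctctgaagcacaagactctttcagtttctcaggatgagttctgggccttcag

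Lipa itself was measured at 308, 283 and 323 CPM in WT mice 1, 2 and 3 and at 18.2, 19.7 and 18.97 CPM in Lipa-/- mice 4, 5 and 6. CPM here and below is the read count scaled to library size after TMM, a factor per library that offsets differences in RNA composition, and lists of 3 values follow the same order of mice. All 3 Lipa-/- livers were far below all 3 WT livers, a log2 fold change of -4.01 (SE 0.233, adjusted p = 1.23e-08 by edgeR's quasi-likelihood test), or 16.1-fold lower, so the labels and the targeted gene go together in every liver. The Lipa-/- livers still held 576, 510 and 516 Lipa reads. A second entry named Lipa.delta4 had 0 reads in all 3 Lipa-/- livers, which allows up to 3 reads each, and 0, 4.32 and 8.36 reads in the WT livers.

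The libraries held 21047103 to 25233906 assigned reads in WT mice and 18178022 to 19813596 in Lipa-/- mice. TMM factors were 0.806 to 1.07 in WT and 1.37 to 1.69 in Lipa-/- mice, and 9761 to 11197 genes reached 1 TPM (a level per transcript length, scaled to the same total in every liver) in WT livers against 12420 to 13178 in Lipa-/- livers. A pair of livers stood apart before any comparison was made. Lipa-/- mouse 4 had 0 reads of the Y-linked genes Ddx3y (chrY:1260715-1286663) and Eif2s3y (chrY:1008409-1047462), while the other 17 livers of the series had 961 to 1803 and 633 to 1366 reads. Its 33 reads of Kdm5d and 18 of Uty were also below the 138 and 151 reads of the lowest other liver. Its reads of the X-linked genes Ddx3x, Eif2s3x and Kdm6a (3644, 2417 and 439) were above those of the highest other liver (3555, 2004 and 320). For Kdm5c, also X-linked, they were not (1082 against 1255). The low Y-linked reads go against the study's description of male mice for that animal, and the cause was not tested. Kdm5d, Uty and the X-linked genes were picked after their values were seen. WT mouse 1 was the other liver: across all tested genes its log2 CPM correlated with WT mice 2 and 3 at Pearson's r of 0.954 and 0.957, against 0.983 between mice 2 and 3. Mitochondrially encoded transcripts made up 8.39% of its TPM and 17.1% and 16.6% in WT mice 2 and 3. Cox4i1, a subunit of cytochrome c oxidase, was at 1389 CPM in WT mouse 1 and at 438 and 489 CPM in the other 2 WT livers. Many results that rest on either liver are given with and without it.

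**Figure D1:**
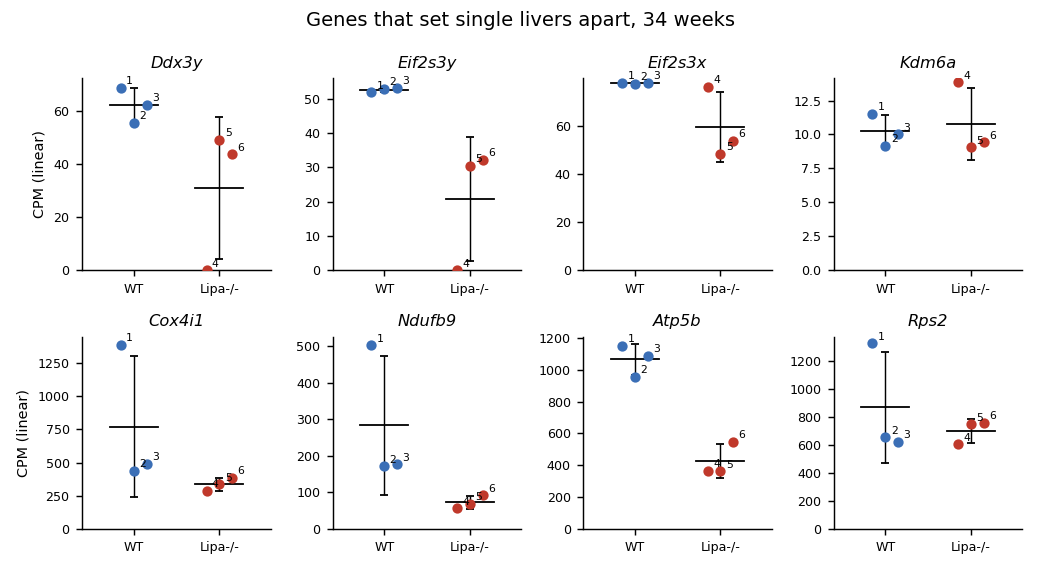
CPM (linear axis, from 0) of 8 genes in WT mice 1 to 3 (blue) and Lipa-/- mice 4 to 6 (red) at 34 weeks; each point is 1 liver with its mouse number, the horizontal line is the mean and the bar the SD. Lipa-/- mouse 4 lies at 0 for Ddx3y and Eif2s3y, and WT mouse 1 lies above the other 5 livers for Cox4i1, Ndufb9 and Rps2.

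In all, 2984 genes (20.5% of those tested) were called higher and 2288 (15.7%) lower in Lipa-/- livers, where called means a log2 fold change beyond 1 in either direction with an adjusted p under 0.05. At any fold, 3455 genes (23.8%) were higher and 3412 (23.5%) lower at that adjusted p. The values of the 2 groups did not overlap in 8760 genes (60.3%). Among called genes, 1120 were more than 8-fold higher and 288 more than 8-fold lower. The median log2 fold change over all tested genes was -0.03, with quartiles of -0.70 and 0.92. Total counts without TMM moved the median of all genes up by 0.63, and log2(TPM + 0.5) tested with limma moved it by 0.57. With those scales 4744 and 4313 genes were called higher and 1052 and 889 lower, so that 81.8% and 82.9% of calls were increases, against 56.6% with TMM. The upper quartile scaling moved it by 0.18, with 3384 higher and 1844 lower. List medians are therefore read below against the median of all genes. Without Lipa-/- mouse 4 there were 2638 higher and 1979 lower calls, without WT mouse 1 2740 and 1959, and without both 2435 and 1711. The names and lists that follow were chosen with earlier results of these data known, and bulk RNA cannot tell fewer cells of a type from less RNA per cell.

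**Figure D2:**
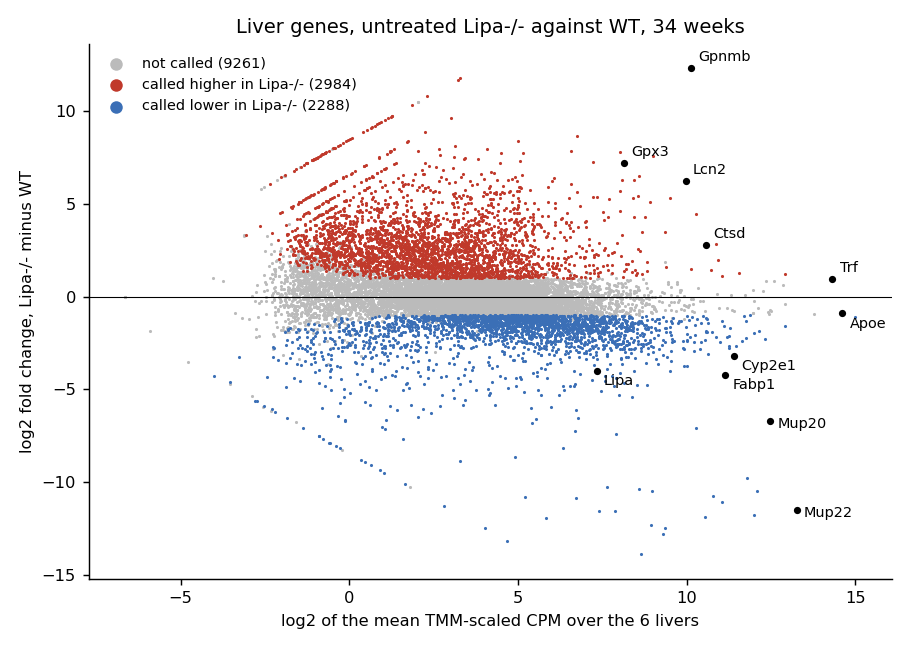
Log2 fold change (Lipa-/- minus WT) against the log2 of the mean TMM-scaled CPM over the 6 livers for the 14533 tested genes, coloured by call (2984 higher, 2288 lower). Gpnmb and Lcn2 are among the abundant genes far above 0, and Mup22, Mup20, Fabp1 and Cyp2e1 among those far below it, while Apoe and Trf lie within 1 of 0; the slanted lines of points at the left are genes with 0 reads in 1 group.

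The largest increases among well-expressed genes were led by Gpnmb (chr6:49013426-49047863), a membrane glycoprotein of lipid-laden macrophages. It was measured at 0.354, 0.631 and 0.311 CPM in WT livers and at 2815, 1912 and 2012 CPM in Lipa-/- livers. It was near 0 in every WT liver and among the abundant transcripts of every Lipa-/- liver, a log2 fold change of 12.31 (SE 1.02, adjusted p = 1.67e-07). The other 11 of the 12 largest increases at 10 CPM or more were Npy, Timp4, Gldn, Ctsk, Sult1e1, Scube3, Mmp7, Clec4d, Trem2, Mt2 and Chil3. Npy, which encodes neuropeptide Y, had 0 reads in all WT livers and stood at 19.8, 12.4 and 26.2 CPM in Lipa-/- livers, at least 142-fold higher when each WT library is set to a floor of 3 reads. Timp4, an inhibitor of metalloproteinases, was likewise at 0 reads in WT and at 13.2, 19.6 and 22.8 CPM, at least 135-fold higher. Gldn, which encodes gliomedin, had 1 read in WT mouse 1 and none in the other WT livers, and 15.6, 14.9 and 17.6 CPM in Lipa-/- livers. Scube3, a secreted signalling protein, was at 17.53, 16.1 and 19.002 CPM in Lipa-/- livers and at no more than 0.117 CPM in WT. Sult1e1, the oestrogen sulfotransferase, stood at 47.1, 45.7 and 100.01 CPM against 0.118 to 0.236 CPM, a log2 fold change of 8.36. Clec4d, a C-type lectin of myeloid cells, was at 36.3, 35.4 and 29.2 CPM against 0.117 to 0.158 CPM. These 12 genes span macrophage, matrix, hormone-metabolising and metal-binding functions.

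Of the 12 largest decreases, 11 were major urinary protein genes and 1 was Cyp4a14, a fatty acid omega-hydroxylase, which was measured at 143, 354 and 522 CPM in WT livers and at 0.189, 0.0773 and 0.0368 CPM in Lipa-/- livers. All 3 Lipa-/- livers were under 1 CPM, and the log2 fold change was -11.58 (SE 1.903, adjusted p = 9.66e-05). In TPM, the 10 most abundant genes of WT liver included Apoe, Apoa2, Mup22, Alb, Apoc1 and Mup20 with 4 mitochondrial genes. Mup22, Mup20, Apoa2 and Apoc1 were called lower at 34 weeks, Apoc1 no longer so without WT mouse 1 (log2 fold change -0.98). In Lipa-/- liver Trf, Hp, Apoa1 and Ftl1 stood among the 10 most abundant genes by TPM. Trf encodes transferrin, and it had the highest TPM in Lipa-/- liver at 46090.4, 54750 and 52527 TPM, against 12750.0, 13934 and 12831 TPM in WT. On the TMM scale Trf was at 15306, 13243 and 13471 CPM in WT and at 20936, 28757 and 31157 CPM in Lipa-/- livers, a log2 fold change of 0.94 that is under the fold threshold (adjusted p = 0.0209), and it was called without Lipa-/- mouse 4 (1.10), without WT mouse 1 (1.01) and with total counts. The 6 most abundant genes whose 95% interval stayed within 0.5 of 0 were Serbp1, Hmgb1, Hnrnpf, Tmed10, Srsf2 and Dad1, genes of RNA binding, chromatin, splicing, vesicle traffic and glycosylation. Hnrnpf was at 146, 165 and 163 CPM in WT and 149, 147 and 170.2 CPM in Lipa-/- livers, with an interval of the log2 fold change from -0.35 to 0.31. Only 291 tested genes (2.02%) had an interval that narrow, so an uncalled gene is not thereby shown to be equal in both groups.

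**Figure D3:**
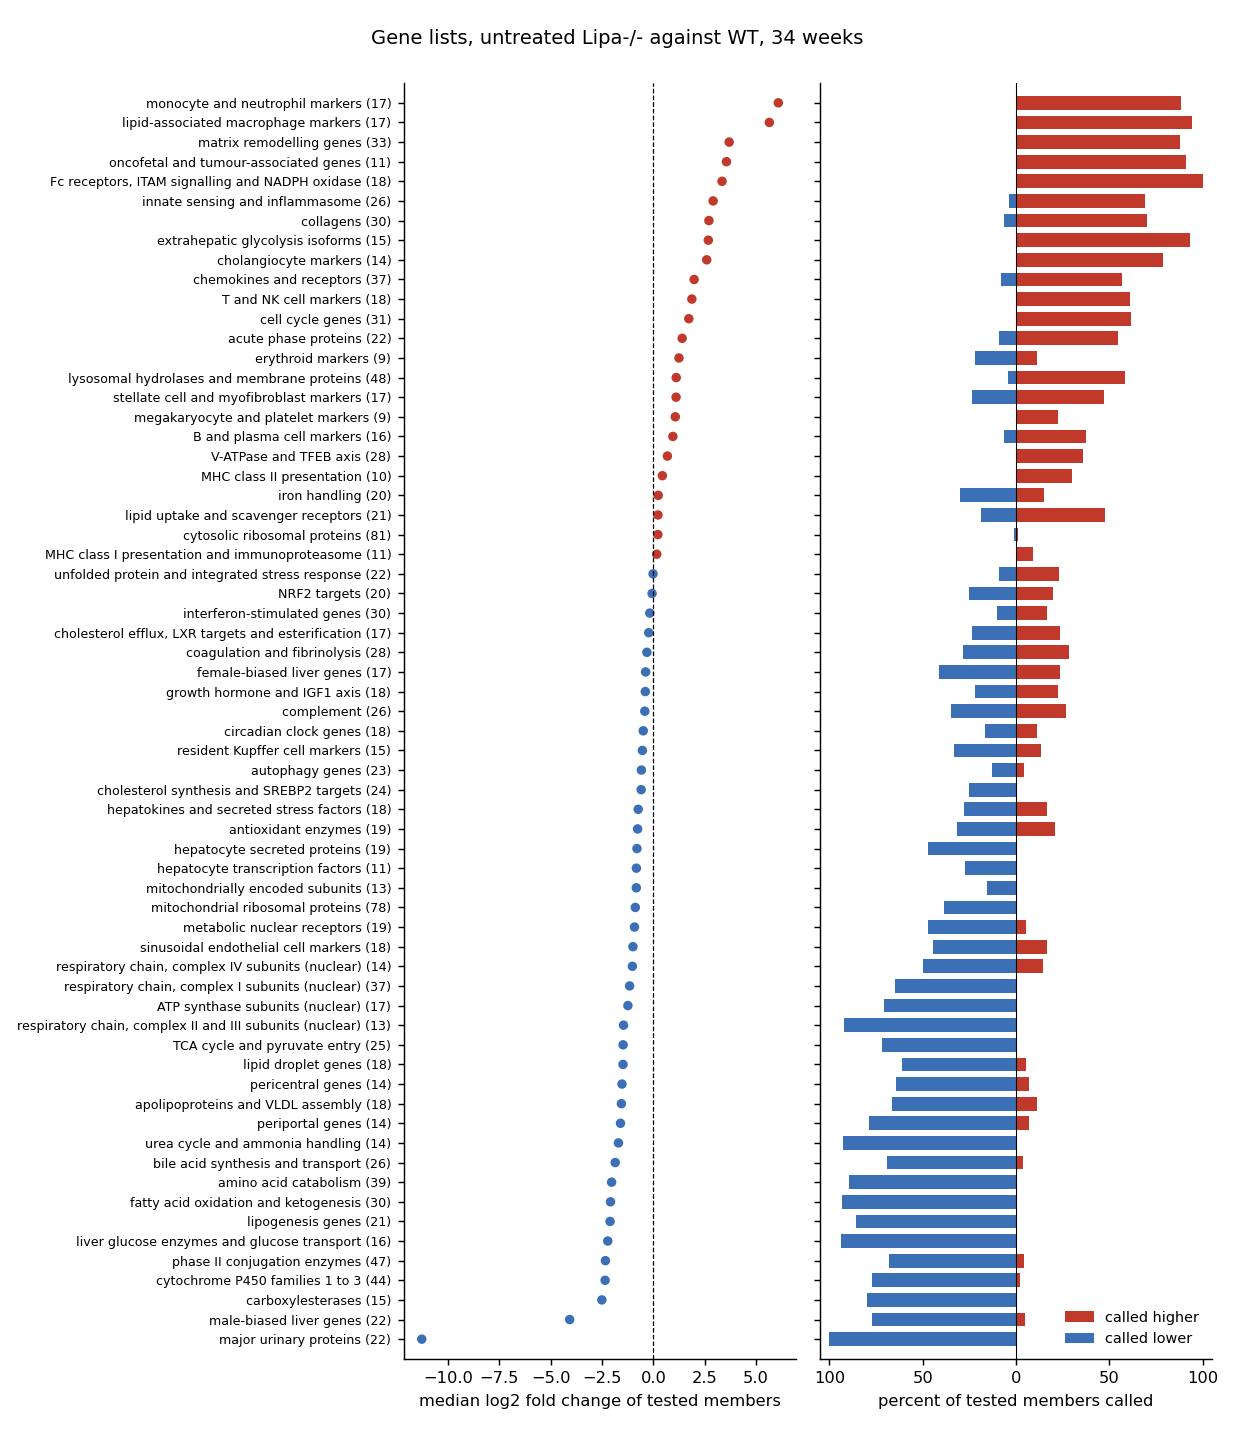
Left, the median log2 fold change (Lipa-/- minus WT) of the tested members of 64 gene lists, sorted, with the number of tested members in brackets; right, the percent of those members called higher (red) or lower (blue). The monocyte and neutrophil and lipid-associated macrophage lists lie at the top (6.08 and 5.65) and the major urinary proteins at the bottom (-11.28), where all 22 members were called lower.

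Genes of the lysosome, the organelle in which the missing lipase works, were mostly higher. Of 48 tested hydrolases and membrane proteins 28 were called higher and 2 lower, one of the 2 being Lipa; without Lipa the median log2 fold change of the other 47 was 1.12, against -0.03 for all genes. Ctsd (cathepsin D, chr7:141929646-141941775), an aspartic protease, was measured at 381, 387 and 396 CPM in WT and at 2717, 3013 and 2243 CPM in Lipa-/- livers. The groups were far apart and each was tight, with a log2 fold change of 2.78 (SE 0.268, adjusted p = 5.85e-07). Ctsb (cathepsin B) rose from 731 to 881 CPM in WT to 2715 to 3285 CPM, a log2 fold change of 1.96. Hexa, a subunit of beta-hexosaminidase, rose from 51.7 to 56.8 CPM to 239.8 to 298 CPM, a log2 fold change of 2.29. Ctsk, a collagen-cleaving cathepsin typical of osteoclasts, was at 0.472, 0.631 and 0.467 CPM in WT and at 255, 131 and 253 CPM in Lipa-/- livers. It was almost absent from WT liver and had the largest change of the list, 8.65 on the log2 scale. Lamp1, a lysosomal membrane glycoprotein, was at 536 to 589 CPM in WT and 634 to 685 CPM in Lipa-/- livers (log2 fold change 0.23, adjusted p = 0.341). Npc1, which carries cholesterol out of the lysosome, was at 57.9, 65.9 and 91.3 CPM in WT and 114, 114 and 85.7 CPM (log2 fold change 0.54, adjusted p = 0.119). With total counts Npc1 was called higher (1.17). Cd68, a macrophage endolysosomal protein on this list, was at 6.38 to 8.51 CPM in WT and 219 to 360.5 CPM in Lipa-/- livers, so macrophage genes moved with the list, and their part in it was not tested.

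Of 28 genes of the proton pump and of the axis around TFEB, a transcription factor for lysosomal genes, 10 were called higher and none lower, and the list median was 0.68; 20 were called higher with total counts. Atp6v1a, a catalytic pump subunit, was at 40.2, 38.8 and 40.6 CPM in WT and at 119, 104.8 and 104.97 CPM in Lipa-/- livers, a log2 fold change of 1.46 (SE 0.205, adjusted p = 2.36e-05). Atp6v0c, the subunit of the membrane ring, rose to 406 to 418 CPM from 151 to 162 CPM, and Atp6v0d2, the isoform of macrophages and osteoclasts, to 72.4 to 166 CPM from 0.885 to 2.36 CPM. Atp6v0d1, the form found in most cells, was at 53.2 to 67.4 CPM in WT and 73.8 to 80.0 CPM (log2 fold change 0.39, adjusted p = 0.148). With total counts Atp6v0d1 was called higher (1.03). Tfeb rose from 5.78, 8.36 and 6.58 CPM to 14.8, 16.2 and 12.8 CPM, a log2 fold change of 1.08, and its call was lost without WT mouse 1 (0.97) and without Lipa-/- mouse 5 (1.00). Of 23 autophagy genes 1 was called higher, Wipi1, and 3 lower, among them Atg5, and 19 were not called. Over all tested genes 20.5% were called higher and 15.7% lower. Without Lipa-/- mouse 4 only 1 autophagy gene was called lower. The call of Atg5 was lost without both Lipa-/- mouse 4 and WT mouse 1 (-0.97). Sqstm1, the cargo receptor p62, was at 393 to 528 CPM in WT and 427 to 505 CPM in Lipa-/- livers (log2 fold change 0.07, adjusted p = 0.842).

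The 6-base motif CACGTG, the core of the E-box that TFEB and related factors bind, was searched in the 250 bases before each start site in the RefSeq promoter table of GRCm38.p6, in which 39 of the 48 lysosomal genes were found. The letters read the same on both strands. The motif was present for 13 of the 39 (33.3%), for 8 of the 22 of these that were called higher, and for 9.52% of the 10985 tested genes found in the table and 6.86% of all 27025 genes in it. In the list of the proton pump and TFEB axis it was present for 5 of 21 genes found (23.8%), and for 1 of the 7 called higher. It was present for 1 of 13 lipid-associated macrophage markers (7.7%) and for 0 of 21 fatty acid oxidation and ketogenesis genes. A match is a description of these letters and not of a bound site, and a link between the motif and the calls was not tested. Shown are 100-base stretches from 4 of the 8 called genes, picked after their values were seen, with the motif in capitals and the strand of the gene: Lgmn (legumain, an asparaginyl endopeptidase) at chr12:102439096-102439195 minus, Ctsd at chr7:142387880-142387979 minus, Gla (alpha-galactosidase A) at chrX:134601154-134601253 minus and Ctsa (cathepsin A) at chr2:164833673-164833772 plus.
Lgmn: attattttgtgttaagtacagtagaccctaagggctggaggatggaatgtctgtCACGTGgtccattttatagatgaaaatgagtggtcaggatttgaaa
Ctsd: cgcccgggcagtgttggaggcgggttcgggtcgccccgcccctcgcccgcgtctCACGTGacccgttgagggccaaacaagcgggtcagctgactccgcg
Gla: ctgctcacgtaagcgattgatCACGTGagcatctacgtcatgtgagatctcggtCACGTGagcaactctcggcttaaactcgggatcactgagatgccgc
Ctsa: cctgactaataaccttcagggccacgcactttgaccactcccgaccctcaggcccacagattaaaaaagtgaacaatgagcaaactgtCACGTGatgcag
Gla holds the motif at 2 places in this stretch. Beside these sequences, Lgmn was at 45.9 to 63.9 CPM in WT and 349 to 481 CPM in Lipa-/- livers, Ctsa at 117 to 153 CPM and 395 to 524 CPM, and Gla at 5.40 to 10.0 CPM and 40.5 to 47.9 CPM; all 3 were called higher, by 2.89, 1.73 and 2.62 on the log2 scale.

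Markers of lipid-laden macrophages and of resident Kupffer cells were examined as separate lists. Of 17 markers of lipid-associated macrophages, cells that take up and degrade lipid in fatty liver and adipose tissue, 16 were called higher and none lower, and the list median was 5.65. Their summed level was 426, 552 and 504 TPM in WT and 15948, 12162 and 10788 TPM in Lipa-/- livers. Trem2, the lipid-sensing receptor that marks these cells, was at 0.472, 1.10 and 0.817 CPM in WT and 190.1, 251 and 129 CPM in Lipa-/- livers, a log2 fold change of 7.85 (SE 0.608, adjusted p = 1.01e-07). Spp1, which encodes osteopontin, was at 35.2, 40.2 and 31.0 CPM and at 1585, 945 and 1740.2 CPM, a log2 fold change of 5.33. Fabp5, a fatty acid carrier, rose to 390.4 to 635 CPM from 10.8 to 30.8 CPM. Every Lipa-/- liver was above every WT liver for these genes.

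Of 15 Kupffer cell markers 2 were called higher and 5 lower, and the list median was -0.54. With total counts 4 were called higher and 3 lower, and the median was 0.14. Their summed level was 425, 457 and 373 TPM in WT and 705, 439 and 236 TPM in Lipa-/- livers, overlapping groups. Cd163, a haemoglobin scavenger receptor, was at 6.43, 12.5 and 8.02 CPM in WT and 0.662, 0.271 and 0.0368 CPM in Lipa-/- livers, a log2 fold change of -4.74 (SE 0.873, adjusted p = 0.00028). Timd4, a phosphatidylserine receptor of long-lived Kupffer cells, was at 5.84, 8.55 and 3.85 CPM and at 0.883, 0.348 and 0 CPM, a log2 fold change of -3.84 (adjusted p = 0.00105). Both genes were lowest in Lipa-/- mouse 6. Clec4f, a lectin restricted to Kupffer cells, was at 160.1, 113 and 69.5 CPM in WT and 33.8, 17.4 and 0.221 CPM in Lipa-/- livers; the groups did not overlap, but the call (-2.73, adjusted p = 0.0445) was lost without WT mouse 1 (adjusted p = 0.101) and without WT mouse 2 or Lipa-/- mouse 5 or 6 (adjusted p = 0.0655 to 0.105). Marco, a scavenger receptor, was at 11.9, 41.0 and 6.70 CPM in WT and at 122, 62.5 and 2.65 CPM, and Vsig4, a complement receptor, at 20.1, 25.3 and 13.6 CPM and 25.01, 15.3 and 1.14 CPM. Neither passed the test (adjusted p = 0.27 and 0.61), and Lipa-/- mouse 6 again held the lowest value. Csf1r, the receptor for the macrophage growth factor CSF1, was one of the 2 that rose, from 18.5, 54.7 and 30.6 CPM to 117, 122 and 64.6 CPM (log2 fold change 1.54).

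**Figure D4:**
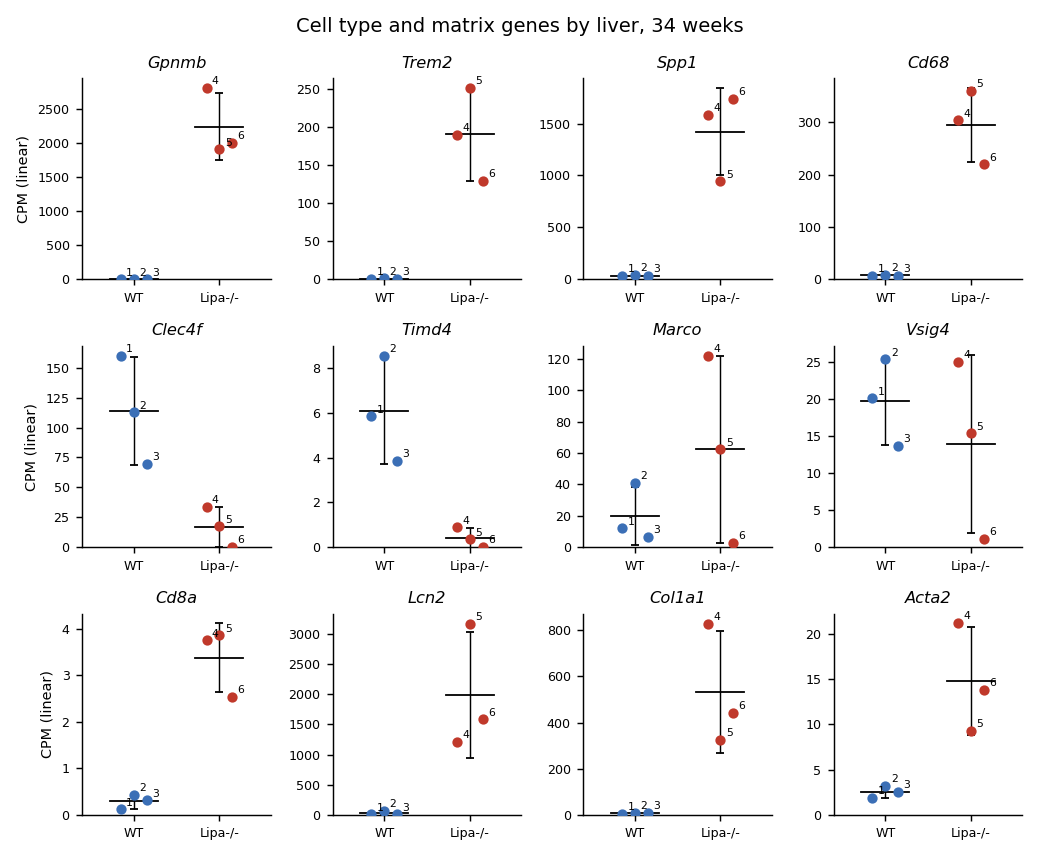
CPM (linear axes, each from 0) of 12 cell type and matrix genes in WT mice 1 to 3 (blue) and Lipa-/- mice 4 to 6 (red) at 34 weeks; each point is 1 liver with its mouse number, the horizontal line is the mean and the bar the SD, cut at 0. Gpnmb, Trem2, Spp1, Cd68, Lcn2 and Col1a1 are higher in every Lipa-/- liver, whereas Clec4f and Timd4 are lower, and Marco and Vsig4 span 2.65 to 122 and 1.14 to 25.01 CPM among the 3 Lipa-/- livers.

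All 18 tested genes of Fc receptors, ITAM signalling and the phagocyte NADPH oxidase were called higher, and the list median was 3.34. Fcer1g, the shared signalling chain of Fc receptors, was at 9.56, 9.30 and 5.14 CPM in WT and 151, 187 and 113 CPM in Lipa-/- livers, a log2 fold change of 4.23 (SE 0.366, adjusted p = 2.45e-07). The oxidase subunits Cybb and Cyba stood at 121 to 215 CPM and 190.0 to 286 CPM, against 8.55 to 14.1 CPM and 7.94 to 23.4 CPM in WT. Among 26 innate sensing and inflammasome genes 18 were called higher and 1, the flagellin receptor Tlr5, lower. Cd14, a co-receptor for lipopolysaccharide, was at 2.18, 4.06 and 2.06 CPM in WT and 121, 314 and 122 CPM, a log2 fold change of 6.06. Tnf rose from 0.177, 0.512 and 0.272 CPM to 5.11, 4.83 and 3.75 CPM (log2 fold change 3.77), while Il1b was at 1.75 to 2.65 CPM in WT and 2.24 to 4.64 CPM (0.75, adjusted p = 0.246). Among 37 chemokines and receptors 21 were called higher and 3 lower, and the list median was 1.98. Ccl2, which recruits monocytes, rose to 32.6, 14.3 and 54.0 CPM from 1.83, 0.670 and 1.87 CPM (4.54). Ccl20, which attracts lymphocytes and dendritic cells, had 0 reads in WT and 3.00, 5.56 and 3.97 CPM in Lipa-/- livers, at least 30.4-fold higher. Cxcl13, a B cell attractant that Kupffer cells can make, fell from 5.84, 7.96 and 0.817 CPM to 0.662, 0.193 and 0 CPM, a log2 fold change of -4.02.

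Lists of other blood cells were examined next. Of 17 monocyte and neutrophil markers 15 were called higher and none lower, and the list median was 6.08, or 5.69 with the 3 genes near 0 in WT set to their bound; 11 were called without Lipa-/- mouse 4, 10 without WT mouse 1 and 7 without both. Lcn2, the neutrophil granule and acute phase protein lipocalin 2, was at 8.79, 63.0 and 7.59 CPM in WT and at 1211, 3175 and 1586 CPM in Lipa-/- livers, a log2 fold change of 6.23 (SE 1.16, adjusted p = 0.000321). S100a8, a subunit of calprotectin, was at 1.95, 1.18 and 0.311 CPM and 99.7, 42.5 and 55.6 CPM (5.89, and edgeR adjusted p = 0.0517 without both). Chil3, a chitinase-like protein of myeloid cells, was at 58.6, 20.2 and 57.1 CPM against 0.118 to 0.236 CPM in WT. Of 18 T and NK cell markers 11 were called higher and none lower, 5 without Lipa-/- mouse 4 and 7 without WT mouse 1. Cd8a stood at 3.75, 3.86 and 2.54 CPM against 0.118, 0.434 and 0.311 CPM (3.48, adjusted p = 1.56e-05), and Cd8b1, its partner chain, rose by 3.59. Cd3e, the pan-T cell chain, was at 0.0590 to 0.552 CPM in WT and 0.515 to 1.82 CPM in Lipa-/- livers, overlapping groups whose call was lost without WT mouse 1 or 3 or Lipa-/- mouse 4 or 5 (edgeR adjusted p from 0.064 to 0.167). Of 16 B and plasma cell genes 6 were called higher and 1 lower, 2 and 2 without both livers that stood apart. Igha, the constant region of IgA, was at 3.30, 8.04 and 2.14 CPM in WT and 71.2, 283 and 181 CPM, a log2 fold change of 5.30, whereas Cd79b, a chain of the B cell receptor, was at 0.895 to 1.66 CPM in WT and 0.588 to 2.40 CPM (0.15, adjusted p = 0.833). Of 9 erythroid genes 1 was called higher, none without WT mouse 1, and 2 lower, whereas 6 were called higher and 1 lower with total counts and also with limma on log2(TPM + 0.5). The haemoglobin gene Hbb-bs was at 65.7 to 164 CPM in WT and 205 to 456 CPM in Lipa-/- livers (1.23, adjusted p = 0.189, and 0.0462 with total counts). Of 9 platelet lineage genes 2 were called higher, a share near the 20.5% of all tested genes, one of them Pf4, which encodes platelet factor 4, at 5.77 to 7.61 CPM against 0.590 to 0.779 CPM.

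Of 30 tested collagens 21 were called higher and 2 lower, and the list median was 2.70; 15 were called higher without both livers that stood apart and 16 with limma on log2(TPM + 0.5). Of 33 matrix remodelling genes 29 were called higher and none lower, and the list median was 3.69. Col1a1, the main fibrillar collagen of scar, was at 3.60, 8.71 and 8.17 CPM in WT and at 829, 326 and 443 CPM in Lipa-/- livers, a log2 fold change of 6.28 (SE 0.696, adjusted p = 2.25e-06). Mouse 4 held the highest value and mouse 5 the lowest, and the groups did not overlap. Col3a1 rose from 14.9 to 22.9 CPM to 239 to 547 CPM (4.27). Timp1, which inhibits matrix breakdown, was at 60.0, 36.4 and 35.5 CPM against 0.236 to 0.350 CPM (7.20), and the collagenase Mmp13 at 1.78 to 4.35 CPM against 0.0590 to 0.272 CPM (4.06), so both a protease and its inhibitor were higher. Mmp2 rose to 45.6 to 75.6 CPM from 0.649 to 1.77 CPM, and Tgfb1, the main fibrogenic cytokine, to 77.2, 72.1 and 57.8 CPM from 6.55, 10.8 and 7.40 CPM (3.06, adjusted p = 1.01e-07). Fn1, which hepatocytes secrete into plasma, was at 611 to 1184 CPM in WT and 745 to 888 CPM (-0.21, adjusted p = 0.661). Col18a1, the most abundant collagen gene by CPM over both groups together, was at 362 to 777 CPM and 358 to 485 CPM (-0.56, adjusted p = 0.183). Within Lipa-/- livers Col1a1 had a higher mean than Col18a1.

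Stellate cell genes moved both ways: of 17, 8 were called higher and 4 lower, beside 20.5% and 15.7% of all tested genes. With total counts 10 were called higher and 2 lower. Acta2, the smooth muscle actin of activated cells, was at 1.89, 3.19 and 2.53 CPM in WT and 21.3, 9.31 and 13.9 CPM in Lipa-/- livers, a log2 fold change of 2.54 (adjusted p = 0.00193), and Lum, which encodes lumican, rose by 4.34. Lrat, which stores vitamin A in quiescent stellate cells, was at 13.04, 18.8 and 16.7 CPM and 1.89, 4.21 and 1.76 CPM, a log2 fold change of -2.63 (adjusted p = 1.05e-05), and Vipr1 fell by 3.55 on the log2 scale. Markers of activation stood higher beside lower markers of quiescence. Of 18 sinusoidal endothelial genes 8 were called lower and 3 higher, the latter a share no larger than that of all tested genes. With total counts 4 were called lower and 4 higher. Clec4g was at 90.4, 48.3 and 48.1 CPM in WT and 8.17, 6.88 and 13.6 CPM in Lipa-/- livers (-2.70), and Dnase1l3, a secreted nuclease, at 20.2, 38.7 and 36.5 CPM and 3.03, 2.01 and 4.74 CPM (-3.28). Lyve1 and Stab1, which macrophages also express, rose by 2.07 and 1.81, and the endothelial scavenger receptor Stab2 was at 15.7 to 30.7 CPM and 23.6 to 32.5 CPM (0.18, adjusted p = 0.641). Of 14 cholangiocyte markers 11 were called higher and none lower. Krt19, a bile duct keratin, was at 0.354, 1.10 and 1.401 CPM in WT and 5.01, 5.33 and 2.87 CPM (2.17). Its call was lost without both livers that stood apart (edgeR adjusted p = 0.0699). Sox9, a transcription factor of ducts and progenitor cells, was at 4.19, 9.06 and 5.72 CPM and 15.2, 52.0 and 41.1 CPM (2.50, adjusted p = 0.000556).

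Proliferation and fetal genes were higher at low levels. Of 31 cell cycle genes 19 were called higher and none lower, 8 without WT mouse 1 and 3 without both livers that stood apart. Mki67, which marks cycling cells, was at 1.12, 4.14 and 3.97 CPM in WT and 24.7, 7.57 and 27.7 CPM in Lipa-/- livers (2.68, adjusted p = 0.012, and 0.108 without both), with mouse 5 the lowest. Ccnd1, which encodes cyclin D1, was at 9.56, 18.7 and 26.9 CPM and at 37.4, 53.3 and 67.3 CPM (1.51, adjusted p = 0.0299, and 0.0588 to 0.113 without WT mouse 1 or 2 or Lipa-/- mouse 5 or 6). Of 11 oncofetal and tumour-associated genes 10 were called higher, and the list median was 3.56. Gpc3, a proteoglycan of fetal liver and liver tumours, was at 0.295, 0.828 and 1.09 CPM in WT and 23.8, 18.4 and 8.67 CPM (4.47, adjusted p = 1.82e-05), and Afp, alpha-fetoprotein, at 1.14 to 1.47 CPM and 3.13 to 6.21 CPM (1.71).

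The main hepatocyte products were still abundant. Of 19 secreted proteins 9 were called lower and none higher, and the list median was -0.80; their summed level was 108546, 124656 and 116702 TPM in WT and 121863, 128782 and 159756 TPM in Lipa-/- livers, and with total counts 2 were called lower and 3 higher. Ttr, which encodes transthyretin, was at 8773, 4999 and 5739 CPM and at 1145, 1159 and 2679 CPM, a log2 fold change of -1.97 (adjusted p = 0.00072). Alb was at 47395, 40727 and 46252 CPM in WT and 15819, 12510.4 and 34173 CPM, with mouse 6 nearest to WT; its call (-1.10, adjusted p = 0.0447) was lost without any one of 5 of the 6 livers and with total counts. Ahsg, which encodes fetuin-A, was at 3449 to 3959 CPM in WT and 4925 to 9009 CPM (0.83, adjusted p = 0.0323; called at 1.01 without Lipa-/- mouse 4). Of 11 hepatocyte transcription factors 3 were called lower and none higher, 6 lower without WT mouse 1, and none lower and 2 higher with total counts. Cebpa was at 429.9, 488 and 534 CPM and 159, 153 and 214 CPM (-1.47, adjusted p = 0.00042), Foxa2 fell by 1.48, and Hnf4a was at 264, 443 and 432 CPM and 172, 251 and 218 CPM (-0.83, adjusted p = 0.0344, and called at -1.03 without WT mouse 1). Of 19 metabolic nuclear receptors 9 were called lower and 1 higher. Ppara, which drives fatty acid oxidation, was at 23.8, 34.5 and 34.8 CPM in WT and 9.05, 6.76 and 7.79 CPM in Lipa-/- livers, a log2 fold change of -1.98 (adjusted p = 0.000202). Nr1i3, the xenobiotic receptor CAR, was at 152, 149.9 and 102 CPM and 28.9, 32.5 and 44.6 CPM (-1.93), and Pparg at 8.43 to 20.2 CPM and 15.03 to 19.1 CPM (0.23, adjusted p = 0.658).

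The largest fall of any list was that of the major urinary proteins, pheromone carriers that male mouse liver makes in bulk under growth hormone pulses. All 22 genes were called lower, with a median log2 fold change of -11.28, or -10.62 with the 6 genes near 0 in Lipa-/- livers set to their bound. The family is a cluster of near-identical copies, so reads may be divided between members and the sum is the firmer value. It was 152953, 56528 and 81105 TPM in WT and 533, 293 and 185 TPM in Lipa-/- livers, and WT mouse 1 held the highest level. Mup20 (chr4:61968464-61972395), which encodes the pheromone darcin, was at 24329, 3245 and 6333 CPM in WT and 145, 109 and 68.7 CPM, a log2 fold change of -6.72 (SE 0.906, adjusted p = 1.57e-05). Mup8 and Mup13 had 0 reads in all 3 Lipa-/- livers and were at least 479.8-fold and 306-fold lower. Without Lipa-/- mouse 4, the liver without reads of Ddx3y and Eif2s3y, 22 of 22 were called lower, and without WT mouse 1 21.

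Of 22 male-biased liver genes, Mup20 among them, 17 were called lower and 1 higher, the same counts as without Lipa-/- mouse 4. Slco1a1, an organic anion uptake carrier, was at 339.7, 25.2 and 122 CPM in WT and 0.851, 0.541 and 0.257 CPM (-8.17, adjusted p = 1.18e-06), and Cyp4a12a at 34.9, 35.8 and 150.1 CPM and at no more than 0.0735 CPM. Serpina1e, an alpha-1-antitrypsin copy, was the one that rose, from 519, 317 and 175 CPM to 722, 781 and 1517 CPM (1.58), a call lost without WT mouse 2 or 3 or Lipa-/- mouse 6 (adjusted p = 0.0532 to 0.094). Female-biased genes did not move as a block: of 17, 4 were called higher and 7 lower. Cyp2b9 was at 8.43, 50.7 and 44.6 CPM in WT and 0.378, 0 and 2.24 CPM (-5.30), and A1bg, with 0 reads in all Lipa-/- livers against 0.295 to 2.17 CPM, was at least 12.2-fold lower. In the growth hormone and IGF1 axis 4 of 18 genes were called higher and 4 lower, beside 20.5% and 15.7% of all tested genes. Ghr, the growth hormone receptor, was at 471, 412 and 406 CPM in WT and 57.1, 62.8 and 102 CPM, a log2 fold change of -2.54 (SE 0.241, adjusted p = 5.13e-07). Igf1 was at 413, 369 and 394 CPM and 165, 224 and 236 CPM (-0.91, adjusted p = 0.0135), under the fold threshold except without Lipa-/- mouse 6 (-1.01). Igfbp1, an IGF-binding protein of fasting and stress, rose from 33.7, 35.0 and 31.8 CPM to 522, 1177 and 279 CPM (4.298), and Socs2, a feedback inhibitor of the receptor, from 3.63 to 10.1 CPM to 27.97 to 49.3 CPM (2.59).

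Cholesterol synthesis, which falls when sterol reaches the endoplasmic reticulum and rises when it does not, was not uniformly moved. Of 24 genes of synthesis and of SREBP2, the sterol-sensing transcription factor, none was called higher and 6 lower, and the list median was -0.60; 10 were lower without WT mouse 1 and 2 with total counts. Hmgcs1, an early enzyme of the pathway, was at 269.5, 683 and 528 CPM in WT and 252, 386 and 358 CPM in Lipa-/- livers (-0.57, adjusted p = 0.28). Sqle, squalene epoxidase, was at 31.0, 91.9 and 53.3 CPM and 65.4, 93.8 and 97.7 CPM (0.54, adjusted p = 0.209; called at 1.02 without WT mouse 2). For both genes the groups overlapped. Tm7sf2, a sterol reductase, fell from 132 to 216 CPM to 36.0 to 57.1 CPM (-1.91). Of 17 genes of efflux, LXR targets and esterification 4 were called higher and 4 lower, beside 20.5% and 15.7% of all tested genes. Soat1, which esterifies cholesterol in macrophages, was at 1.95, 3.27 and 3.00 CPM in WT and 73.9, 65.6 and 49.4 CPM, a log2 fold change of 4.51 (SE 0.332, adjusted p = 7.45e-08). Abcg1, a cholesterol exporter of macrophages, rose from 3.07, 5.75 and 3.89 CPM to 52.4, 38.4 and 44.1 CPM (3.40), whereas Abca1 was at 47.8 to 96.5 CPM and 93.6 to 107 CPM (0.32, adjusted p = 0.433) and Abcg8, the hepatocyte exporter into bile, at 38.6 to 50.8 CPM and 30.0 to 40.8 CPM (-0.34, adjusted p = 0.501).

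Most genes of the lipid synthesis and oxidation lists were lower. Of 21 lipogenesis genes 18 were called lower and none higher, and the list median was -2.11. Fasn, fatty acid synthase, was at 304, 1374 and 2251 CPM in WT and 134, 142 and 229.9 CPM in Lipa-/- livers, a log2 fold change of -2.96 (SE 0.584, adjusted p = 0.000529); WT livers spread widely and WT mouse 1 was the lowest of them. Me1, malic enzyme, fell from 360.2, 381 and 893 CPM to 23.7, 17.8 and 23.8 CPM (-4.64), and Scd1, the main desaturase, from 7059 to 17210.3 CPM to 3354 to 4369.6 CPM (-1.61). The Scd1 isoform Scd2, which was not among the 21 genes of that list, rose from 2.89 to 8.51 CPM to 53.9 to 120.3 CPM (3.73). Of 30 fatty acid oxidation and ketogenesis genes 28 were called lower and none higher, and the list median was -2.09. Ehhadh, a bifunctional enzyme of peroxisomal oxidation, was at 333, 234 and 394 CPM and 43.0, 71.2 and 83.4 CPM (-2.28, adjusted p = 8.53e-06), and Acadm, a mitochondrial dehydrogenase, at 384 to 457 CPM and 91.6 to 127 CPM (-1.98). Cpt1a, the gate for entry of fatty acids into mitochondria, was at 114, 278 and 301 CPM and 119.5, 131 and 108 CPM (-0.95, adjusted p = 0.0604), and was called lower without WT mouse 1 (-1.28). With total counts 12 lipogenesis and 22 oxidation genes were called lower.

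Of 18 lipid droplet genes 11 were called lower and 1 higher, and with total counts 9 lower and 3 higher. Plin2, the coat protein of hepatocyte droplets, was at 856, 797 and 860.4 CPM in WT and 219, 296 and 215 CPM in Lipa-/- livers, a log2 fold change of -1.78 (SE 0.271, adjusted p = 4.98e-05). The call of Plin2 was lost with limma on log2(TPM + 0.5). Cidec, which fuses droplets, fell from 3.30, 26.4 and 38.96 CPM to 0.568, 1.275 and 1.07 CPM (-4.57), and Fitm1 from 86.6 to 96.2 CPM to 0.694 to 1.397 CPM (-6.62), while Hilpda, a lipase inhibitor, rose from 1.48 to 5.31 CPM to 6.54 to 14.7 CPM (1.59). Of 18 genes of apolipoproteins and VLDL assembly 12 were called lower and 2 higher, and with total counts 8 lower and 2 higher. Apob, the structural protein of VLDL, was at 2113, 3406 and 3571 CPM and 990.4, 1171 and 1528 CPM (-1.30, adjusted p = 0.0052), and Mttp, which loads lipid onto it, at 239, 300.1 and 341 CPM and 62.5, 66.5 and 98.1 CPM (-1.95). The call of Apob was lost with total counts (-0.72). Apoe was at 39814, 29196 and 29618 CPM and 13737, 19696 and 19096 CPM (-0.91, adjusted p = 0.0444), and Apoa1 at 5413 to 13916 CPM and 5116 to 8576 CPM (-0.39, adjusted p = 0.412). Apobec1, the editing enzyme of Apob mRNA, rose from 11.0 to 12.6 CPM to 32.8 to 67.3 CPM (2.14). Of 21 uptake and scavenger receptor genes 10 were called higher and 4 lower. Msr1, a macrophage scavenger receptor, was at 10.4, 10.3 and 8.80 CPM and 44.6, 40.5 and 37.3 CPM (2.05), and Cd36 at 84.9 to 187 CPM and 82.7 to 137 CPM (-0.31, adjusted p = 0.531). Fabp1, the fatty acid carrier of hepatocytes, was at 5600.0, 3246 and 4062 CPM in WT and 181, 291 and 219 CPM, a log2 fold change of -4.22 (SE 0.377, adjusted p = 3.33e-07), the opposite direction to Fabp5.

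Bile acid and drug metabolism genes were among the most depleted. Of 26 bile acid genes 18 were called lower and 1 higher, and the list median was -1.86. Cyp7a1, the rate-limiting enzyme of synthesis, was at 18.2, 71.4 and 69.9 CPM in WT and 33.6, 4.21 and 43.6 CPM in Lipa-/- livers, overlapping groups (-0.97, adjusted p = 0.261). Cyp8b1, which sets the share of cholic acid, was at 219, 373 and 503 CPM and 25.9, 7.92 and 13.3 CPM (-4.54, adjusted p = 5.01e-07). The uptake carrier Slc10a1 fell from 409.9, 437 and 607 CPM to 37.7, 36.3 and 68.3 CPM (-3.35), and the export pump Abcb11 from 519 to 708 CPM to 63.0 to 110.4 CPM (-2.81). Of 44 cytochromes P450 of families 1 to 3 34 were called lower and 1, Cyp1b1, higher, and the list median was -2.35. Cyp2e1 was at 4993, 4850.2 and 4716 CPM in WT and 653, 620.3 and 336 CPM, a log2 fold change of -3.18 (SE 0.392, adjusted p = 6.47e-06). Cyp2b10, the classical target of CAR, had 0 reads in all Lipa-/- livers and 3.72, 2.17 and 6.23 CPM in WT, at least 37.8-fold lower. Cyp1b1, mainly an extrahepatic form, rose from 0.118, 0.828 and 0.545 CPM to 53.9, 37.3 and 32.3 CPM (6.29). Of 47 phase II conjugation genes 32 were called lower and 2 higher. Ugt2b1 was at 433, 234 and 354 CPM and 10.1, 7.497 and 11.9 CPM (-5.11), and Sult2a8, a bile acid sulfotransferase of male liver, at 1356, 427 and 519 CPM and 0.505, 0.464 and 0.735 CPM (-10.39). Of 15 carboxylesterases 12 were called lower and none higher. Ces3a was at 1509, 1296 and 1322 CPM and 72.4, 120.0 and 66.4 CPM (-3.995), and Ces1d, a neutral lipase that mobilises droplet lipid for VLDL, at 579 to 736 CPM and 46.4 to 96.1 CPM (-3.30). These families hold near-identical copies, and the authors' assignment may divide reads between them.

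Nitrogen and carbohydrate metabolism followed the same direction. Of 14 urea cycle and ammonia genes 13 were called lower, of 39 amino acid catabolism genes 35, and of 16 liver glucose genes 15, with no member of the 3 lists called higher and medians of -1.70, -2.03 and -2.22. With total counts 7, 28 and 12 were called lower. Cps1, the entry enzyme of the urea cycle, was at 1879, 1831 and 1704 CPM in WT and 466, 401 and 989 CPM in Lipa-/- livers (-1.55, adjusted p = 0.000845), with mouse 6 nearest to WT. The call of Cps1 was lost with total counts (-0.94). Otc was at 714, 308 and 419 CPM and 45.8, 50.6 and 105.4 CPM (-2.84), again highest in mouse 6. Hal, which degrades histidine, was at 559, 329.7 and 362 CPM and 8.80, 12.8 and 42.8 CPM (-4.28), and Tdo2, which degrades tryptophan, at 988 to 1670.2 CPM and 82.9 to 181 CPM (-3.28). Pklr, the liver pyruvate kinase, was at 209.8, 329 and 692 CPM and 57.9, 48.7 and 94.5 CPM (-2.61, adjusted p = 0.00011). Pck1, the gluconeogenic enzyme, was the glucose gene that was not called, at 1025, 673 and 1131 CPM and 877, 1051 and 393 CPM (-0.29, adjusted p = 0.705). The isoforms that other tissues use for glycolysis went the other way, with 14 of 15 called higher and a median of 2.67. Pkm, the muscle-type pyruvate kinase, was at 16.1, 25.6 and 19.3 CPM in WT and 459, 294 and 318 CPM (4.13, adjusted p = 3.68e-07), and Hk2 at 0.531, 4.37 and 2.18 CPM and 17.47, 18.2 and 10.3 CPM (2.67). In both zones of the lobule most calls were decreases. Of 14 pericentral genes 9 were called lower and 1 higher, and of 14 periportal genes 11 lower and 1 higher. With total counts 5 pericentral and 6 periportal genes were called lower. Glul, glutamine synthetase of the cells around the central vein, was at 447, 1379 and 1364 CPM and 175, 237 and 114 CPM (-2.60), and the periportal Cyp2f2 at 531, 592 and 839 CPM and 2.81, 3.83 and 39.5 CPM (-5.41, adjusted p = 6.63e-05). Cdh1, E-cadherin, was the periportal gene that rose, from 11.4, 3.90 and 3.46 CPM to 63.1, 66.0 and 75.3 CPM (3.46).

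For nuclear genes of mitochondria many calls depended on WT mouse 1 and on the scaling. Of 25 genes of the TCA cycle and pyruvate entry 18 were called lower, 17 without WT mouse 1 and 9 with total counts. Sdhb was at 332, 183 and 214 CPM in WT and 60.6, 68.2 and 89.3 CPM in Lipa-/- livers (-1.74, adjusted p = 3.76e-05). For complex I 24 of 37 nuclear subunits were called lower, 7 without WT mouse 1; for complexes II and III 12 of 13, and 7; for complex IV 7 of 14, with 2 called higher, and 0; and for ATP synthase 12 of 17, and 4. Without Lipa-/- mouse 4 they were 17, 7, 3 and 7. With total counts the respective numbers were 3, 6, 0 and 0. Cox4i1, at 1389, 438 and 489 CPM in WT and 285, 337 and 387 CPM, had a log2 fold change of -1.20 (adjusted p = 0.0222) with and -0.46 (adjusted p = 0.281) without that mouse, and its call was also lost without Lipa-/- mouse 4 (0.0806) or 5 (0.058). Ndufs1, a core subunit of complex I, was at 94.8, 110.2 and 129 CPM and 33.9, 30.6 and 44.99 CPM (-1.61, adjusted p = 7.19e-06), and its call stood without either liver. The call of Ndufs1 was lost with total counts (-0.998) and with limma on log2(TPM + 0.5). Of 78 mitochondrial ribosomal protein genes 30 were called lower, 7 without WT mouse 1 and 2 with total counts. Of 81 cytosolic ribosomal protein genes 1 was called higher and 1 lower, but without WT mouse 1 22 were called higher and none lower, and 30 were called higher with total counts and 54 with limma on log2(TPM + 0.5). Rps2 was at 1332, 655 and 625 CPM in WT and 605, 748 and 760.0 CPM (-0.31, adjusted p = 0.417). Of the 13 mitochondrially encoded genes 2 were called lower, none without Lipa-/- mouse 4; mt-Nd1 was at 4463, 5422 and 6195 CPM and 3019, 3748 and 3746 CPM (-0.61, adjusted p = 0.187).

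Plasma protein genes were divided, and over all tested genes 20.5% were called higher and 15.7% lower. Of 22 acute phase genes 12 were called higher and 2 lower. Orm2, an acid glycoprotein, was at 40.6, 68.5 and 15.7 CPM in WT and 400.2, 1486 and 603 CPM in Lipa-/- livers (4.32, adjusted p = 0.0031). Mt2, a metallothionein, was at 0.767, 3.98 and 2.06 CPM and 265, 1025 and 273 CPM (7.81). Saa1, serum amyloid A, was at 383, 415 and 52.0 CPM and 262, 2630.5 and 196 CPM (1.86, adjusted p = 0.221), so 1 liver, mouse 5, carried its higher mean, and mouse 5 held the highest value of the other 2 genes too. Saa4, the constitutive form, fell from 207 to 368 CPM to 45.8 to 109 CPM (-1.89). Hp, haptoglobin, was at 6639, 5116 and 2248 CPM and 7333, 13973 and 11176 CPM (1.21), a call lost without WT mouse 3 (0.88) or Lipa-/- mouse 5 (0.99). Of 26 complement genes 7 were called higher and 9 lower. C1qa and C3ar1, made by macrophages, rose by 2.22 and 5.04, while Mbl2 and C8g, made by hepatocytes, fell by 3.65 and 3.99 on the log2 scale. C3 was at 3169.9, 5796 and 4284 CPM and 6167, 9729 and 8151 CPM (0.86, adjusted p = 0.0614; called at 1.10 without WT mouse 2). Of 28 coagulation and fibrinolysis genes 8 were called higher and 8 lower; Plaur, the urokinase receptor, rose from 0.195 to 0.591 CPM to 27.2 to 39.3 CPM (6.35), F13b fell by 1.84, and the fibrinogen gene Fgb was at 2396 to 4631 CPM and 2793 to 6721 CPM (0.35, adjusted p = 0.451). Of 20 iron genes 3 were called higher and 6 lower, a balance that turned to 7 higher and 1 lower with total counts and to 9 and 0 with limma on log2(TPM + 0.5). Fth1, ferritin heavy chain, was at 1861, 1583 and 1864 CPM and 3848, 5286 and 3449 CPM (1.25), and Hmox1, heme oxygenase 1, at 14.4, 19.2 and 19.2 CPM and 121, 111 and 74.1 CPM (2.53, adjusted p = 1.8e-06). Hamp, which encodes hepcidin, was at 2287, 468 and 1034 CPM and 209, 853 and 429 CPM, overlapping groups (-1.35, adjusted p = 0.0955; called without WT mouse 2 at -1.74 and without Lipa-/- mouse 5 at -1.98).

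Lists of stress and defence genes held calls in both directions or few calls. Over all tested genes 20.5% were called higher and 15.7% lower, and several of these lists were near those shares. Of 22 genes of the unfolded protein and integrated stress response 5 were called higher and 2 lower; Atf3 rose from 1.47, 2.13 and 1.36 CPM to 42.8, 45.02 and 34.0 CPM (4.61), while the chaperone Hspa5 was at 645 to 959 CPM and 433 to 795 CPM (-0.47, adjusted p = 0.253) and Ddit3, which encodes CHOP, at 6.03 to 9.77 CPM and 13.6 to 15.7 CPM (0.91, adjusted p = 0.266). Of 20 NRF2 targets 4 were called higher and 5 lower. Slc7a11, the cystine carrier, rose from 0.272 to 0.473 CPM to 5.95 to 8.96 CPM (4.37), and Nqo1 was at 7.92 to 15.03 CPM and 10.0 to 20.9 CPM (0.22, adjusted p = 0.681). Of 19 antioxidant enzymes 4 were called higher and 6 lower, and the list median was -0.77. Gpx3, the secreted glutathione peroxidase, was at 3.01, 5.44 and 3.00 CPM in WT and 537, 557 and 599 CPM in Lipa-/- livers, a log2 fold change of 7.20 (SE 0.460, adjusted p = 2.89e-08), whereas the cytosolic Gpx1 fell from 5707, 1832 and 1704 CPM to 529.8, 706 and 792 CPM (-2.19) and catalase, Cat, had a log2 fold change of -3.12. Of 30 interferon-stimulated genes 5 were called higher and 3 lower, 1 lower without Lipa-/- mouse 4, and the list median was -0.18 that became 0.43 with total counts. Isg15 was at 7.51 to 14.9 CPM and 5.23 to 11.7 CPM (-0.16, adjusted p = 0.797). Of 10 MHC class II genes 3 were called higher, and Cd74, the invariant chain, was at 50.5, 135 and 61.5 CPM and 219.6, 372 and 132 CPM (1.55), a call lost without WT mouse 1 or 3 or Lipa-/- mouse 4 or 5 (edgeR adjusted p from 0.0683 to 0.185). Of 11 MHC class I genes 1 was called higher, Tapbp (1.16), a call lost without WT mouse 1 (0.97) or Lipa-/- mouse 5 (0.99), and B2m was at 1329 to 1584 CPM and 947 to 1412 CPM (-0.23, adjusted p = 0.586). Of 18 clock genes 2 were called higher and 3 lower; Bhlhe41 rose from 0.394 to 2.02 CPM to 24.4 to 46.7 CPM (5.24), and Per2 was at 2.77 to 9.46 CPM and 3.52 to 7.76 CPM (-0.15, adjusted p = 0.869). Of 18 hepatokine genes 3 were called higher and 5 lower. Inhbe, an activin subunit, fell from 62.6, 103 and 92.5 CPM to 5.80, 10.3 and 15.1 CPM (-3.05), and Fgf21 was at 7.24 to 9.67 CPM and 2.24 to 4.64 CPM (-1.27, adjusted p = 0.126), its 2 groups not overlapping.

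The spread between livers was compared within each group. The median SD of log2 CPM over all tested genes was 0.230 among Lipa-/- and 0.386 among WT livers, and it was larger in Lipa-/- for 31.6% of genes; the WT value includes mouse 1. Pairs of Lipa-/- livers correlated at Pearson's r of 0.966 to 0.975 across genes, below the 0.983 of WT mice 2 and 3 and above the 0.954 and 0.957 of the pairs with WT mouse 1, and genes are no replicates of a liver. The 8 genes at 10 CPM or more in Lipa-/- liver with the widest spread among its 3 livers were Rps6-ps4, Ddx3y, Eif2s3y, Clec4f, Marco, Gsta1, H2-M2 and Vsig4. Ddx3y and Eif2s3y were set apart by mouse 4, as given above. Clec4f, Marco, Vsig4 and H2-M2, an MHC class Ib gene, were lowest in mouse 6, where H2-M2 stood at 1.25 CPM against 16.5 and 28.6 CPM in mice 4 and 5. Gsta1, a glutathione transferase, was at 5.74, 0.889 and 35.4 CPM. Rps6-ps4, at 48.7, 49.7 and 0 CPM, is a pseudogene whose reads may belong to Rps6. Mouse 6 also held the lowest summed level of the lipid-associated markers among the 3, 10788 TPM against 12162 and 15948 TPM.

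The same contrast at 12 weeks used other mice, and time cannot be told apart from the animal cohort, since the 12-week and 34-week mice carry different study codes; Lipa-/- mouse 5 of 12 weeks has a code that no other liver shares. Of the 5272 genes called at 34 weeks 3492 were also called at 12 weeks and 3486 of these in the same direction, while 1780 were called at 34 weeks only. That count does not show a change with time, and an interaction term for the difference between the 2 contrasts called 9 genes (0.0619%), 3 with a positive and 6 with a negative difference; 1378 genes had an unadjusted p under 0.05. With 1 liver left out the interaction called 2 genes (without Lipa-/- mouse 5 of 34 weeks) to 72 (without mouse 6), with a replicate block 0, and by DESeq2 with length offsets 171. The 9 genes follow, 1 of which, Slc22a29, lies below the level set for naming and was picked after its values were seen.

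Cyp3a25 (chr5:145913516-145946432), a steroid-oxidising cytochrome, was at 139, 191 and 199.9 CPM in WT and 147, 97.8 and 118 CPM in Lipa-/- livers at 12 weeks, and at 444, 348 and 318 CPM and 53.8, 46.0 and 63.95 CPM at 34 weeks. Its log2 fold change was -0.55 at 12 and -2.76 at 34 weeks, a difference of -2.21 (SE 0.315, adjusted p = 0.00825). Ces1f, a carboxylesterase, was at 404 to 449.6 CPM in WT at 12 weeks and at 371 to 583 CPM at 34 weeks, and in Lipa-/- livers at 11.5 to 25.9 CPM at 12 weeks and at 2.11, 2.74 and 3.53 CPM at 34 weeks, a difference of -2.88 (adjusted p = 0.036). For Fgfr1, a growth factor receptor of mesenchymal cells, Lipa-/- livers were at 12.4 to 15.9 CPM at 12 weeks and 27.7 to 40.8 CPM at 34 weeks, and WT livers at 4.21 to 5.60 CPM and 1.06 to 3.19 CPM, a difference of 2.35 (adjusted p = 0.036). Myc, a growth-promoting transcription factor, was at 10.7, 14.2 and 4.40 CPM in WT and 9.90 to 12.0 CPM in Lipa-/- livers at 12 weeks, and at 0.826, 1.85 and 2.02 CPM and 20.1, 18.8 and 13.1 CPM at 34 weeks, a difference of 3.29 (adjusted p = 0.0495). Fgfr1 and Myc were each called in 8 of 21 fits of the interaction.

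The remaining 5 genes were Selenbp2, Slc22a27, Slc22a29, Mmd2 and Cyp3a59. Selenbp2 (chr3:94600863-94611720), a selenium-binding protein, was at 1185, 1197 and 459.7 CPM in WT livers at 12 weeks and at 11.7, 9.54 and 11.8 CPM at 34 weeks, and at 25.7 to 41.7 CPM and 9.82 to 23.3 CPM in Lipa-/- livers, a difference of 5.22 (adjusted p = 0.00459). The anion carrier genes Slc22a27 and Slc22a29 were at 0.322 to 0.890 CPM and 0.105 to 0.268 CPM in WT at 12 weeks and at 8.32 to 14.6 CPM and 4.90 to 6.07 CPM in WT at 34 weeks, differences of -5.12 and -5.28 (adjusted p = 0.00161 and 0.00825). Slc22a27 was called lower in Lipa-/- livers at 34 weeks (-1.33), a call lost with total counts (-0.73). Given the difference of -5.12, its log2 fold change at 12 weeks was positive. Mmd2 was at 1.29 to 3.38 CPM in WT and 5.21 to 7.20 CPM in Lipa-/- livers at 12 weeks and at 12.0 to 17.7 CPM and 0.631 to 2.17 CPM at 34 weeks (-4.93), and Cyp3a59 at 2.25 to 2.83 CPM and 4.65 to 10.1 CPM, then 12.5 to 17.0 CPM and 2.82 to 5.44 CPM (-3.17), each with an adjusted p of 0.036. Both were above WT in every Lipa-/- liver at 12 weeks and below WT in every Lipa-/- liver at 34 weeks.

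**Figure D5:**
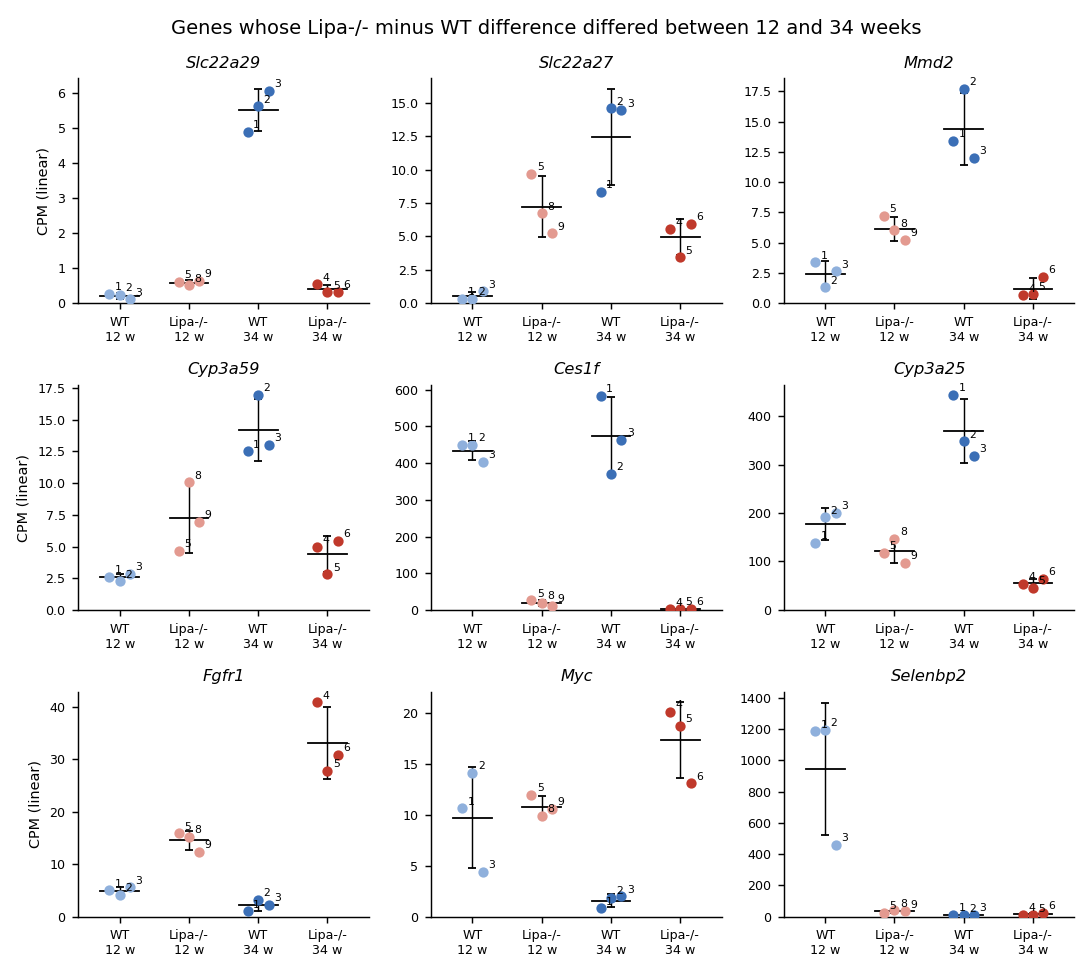
CPM (linear axes, each from 0) of the 9 genes whose Lipa-/- minus WT difference differed between 12 and 34 weeks, in WT (blue) and untreated Lipa-/- (red) livers, paler at 12 weeks; each point is 1 liver with its mouse number, the horizontal line is the mean and the bar the SD, cut at 0. Fgfr1 and Myc are higher in Lipa-/- livers at 34 weeks, Ces1f and Cyp3a25 lower, and Selenbp2 is at 459.7 CPM or more in the 12-week WT livers alone.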

How the data were processed

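Per the labels and the study's methods, the authors quantified paired-end reads with Salmon against GRCm39 and summarised them to genes with tximport; the submitters' processing notes name R 4.3.0 and DESeq2 1.40.1. The deposited table holds an expected count, a TPM value and an effective length per gene and liver, and 19.4% of the expected counts were not whole. A further table holds the authors' own comparisons, with fold changes and p-values, and was not used. Expected counts were rounded, genes with more than 100 reads over the 18 livers were kept, and group means were fitted with edgeR 4.0.16 (TMM, quasi-likelihood test, R 4.3.3) over all 18 livers, so that the 6 groups share 1 estimate of the spread. Called means an absolute log2 fold change above 1 with a Benjamini-Hochberg adjusted p under 0.05. Between 3 and 3 livers the smallest exact two-sided permutation p is 0.1, so none is given for single genes. Intervals are 95% intervals, and floors of 3 reads cover counting error only.

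DESeq2 1.42.0, limma 3.58.1 on log2(TPM + 0.5), other scalings and filters, and fits without single livers were alternatives. The fit without both Lipa-/- mouse 4 and WT mouse 1 was chosen after seeing the data. The comparison, the lists and the genes were chosen with earlier results of these data known. The text names the indicator genes of 64 lists, each list's largest called increase and decrease and most abundant member, the 12 largest changes each way, the interaction genes at 10 CPM or more, the 10 most abundant genes by TPM per group, the 6 most abundant genes with an interval within 0.5 of 0, and the 8 with the widest spread among Lipa-/- livers; others are said to be picked after their values were seen. Each mouse is 1 library. Where copies are near-identical, the authors' read assignment may divide reads between them. Some genes that this rule selects are not reported here.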

Additional observations from a re-analysis of the deposited data

Results flagged for a closer look

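The Lipa-/- minus WT log2 fold change differed between 34 and 12 weeks, by a test of the difference itself (edgeR, adjusted p under 0.05), for 9 genes. The differences were -5.28 for Slc22a29, -5.12 for Slc22a27, -4.93 for Mmd2, -3.17 for Cyp3a59, -2.88 for Ces1f, -2.21 for Cyp3a25, 2.35 for Fgfr1, 3.29 for Myc and 5.22 for Selenbp2. Of 21 fits, Slc22a27 and Selenbp2 were called in 20, Cyp3a25 in 19 and Slc22a29 in 18, whereas Ces1f was called in 11, Mmd2 and Cyp3a59 in 9, and Fgfr1 and Myc in 8. The time points also differ in the cohort of mice by study code, so time and cohort cannot be told apart, and Lipa-/- mouse 5 of 12 weeks has a code that no other liver shares.

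The liver of WT mouse 2 at 34 weeks, which received no vector, had 23 reads assigned to the human LIPA transgene. WT mouse 1 had 1 such read, and WT mouse 3 and the 3 untreated Lipa-/- livers had 0. The source of these reads was not tested.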

How the results depend on the processing

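None of the 346 named genes reversed its direction while called in any of 19 other settings. Kept and lost calls were counted over 17 of these settings, without those that changed only the thresholds for a call. Of the 249 called genes 188 kept their call in every such setting that could be fitted, and 61 lost it in at least 1. Of the 97 that were not called, 32 were called in at least 1. Total counts without TMM gave 4744 higher and 1052 lower. Limma, which also changes the test, the length correction and the pseudocount, gave 889 lower on log2(TPM + 0.5), and limma on log2(TPM + 0.1) 4953 higher and 970 lower. Leaving out 1 liver gave 4617 to 5346 calls, 2638 to 2948 higher and 1959 to 2431 lower. The 9 genes that differed between time points became 4 with length offsets, 33 with no filter, 14 with only the 12 untreated livers, 171 by DESeq2 with length offsets, 4 at an adjusted p under 0.01, and 2 to 72 with 1 liver left out, the lowest without Lipa-/- mouse 5 and the highest without Lipa-/- mouse 6 of 34 weeks. With a replicate block 0 were called by edgeR (742 at an unadjusted p under 0.05), with 3 residual degrees of freedom. Correlations of same-numbered WT mice were 0.08, -0.24 and 0.46, and values from so few mice cannot show whether the numbers pair the livers. The cause of these differences was not tested.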
